A study of Mus musculus with 12 samples.

Results

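The data describe 8 receptors through which blood progenitors leave the circulation and settle in tissue, measured by RNA sequencing in lineage-depleted mouse bone marrow cells. The receptors were Cxcr4, Selplg, Itga4, Itgb1, Itgal, Itgb2, Itgam and Cd44, taken by name as the known homing and adhesion molecules of these cells, and they were 8 of 38924 entries in the deposited table. 7 were found by their symbol and Cxcr4 by its Ensembl identifier, for the reason given with its values.

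The 6 brain-recovered libraries came from lineage-depleted marrow cells that were injected intravenously into mice at a dose of 1000000 cells, 24 h after cerebral ischaemia and reperfusion, and were taken back from the brain 24 h after the injection. The 6 naive libraries came from lineage-depleted marrow cells that were not injected. The donors of both groups were male C57BL/6 mice of 4 to 5 weeks, and in both groups mature cells had been depleted with antibodies to CD45R, CD11b, CD3e, Ly-6G and TER119. How injected cells were told from cells of the host brain is not stated. Nothing in the labels ties a replicate to its own animal or preparation, so the p-values rest only on spread between these libraries, which may be technical. The limma p-values and SE below use a spread pooled over entries, not that of the single gene.

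Homing of progenitors runs in steps. P-selectin glycoprotein ligand and CD44 catch selectins and hyaluronan and let cells roll on the vessel wall, the chemokine CXCL12 then signals through CXCR4, and that signal switches integrins into the binding state that holds the cell. The integrin pair of alpha 4 and beta 1 binds VCAM1 and fibronectin, and the beta 2 integrins, with alpha L or alpha M, bind ICAM1. The same steps are known for leukocytes entering inflamed brain.

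Values are called RPKM here, that is, reads divided by exon length and multiplied by a constant of each library. This constant did not follow depth. A read on 1 kb counted 1.15 in brain-recovered replicate 10 (13426240 recovered reads) and 0.986 in naive replicate 3 (654542). The values are therefore not evened out for the number of recovered reads. Differences between groups are brain-recovered minus naive means of log2(RPKM + 1), a scale that understates the change of low genes. None of the 8 receptors differed between brain-recovered and naive libraries in limma across all entries with an adjusted p-value under 0.05, whereas 65 of the 17689 entries tested were higher, or 0.367%, and 0 were lower, or 0.0%. The unadjusted limma p was under 0.05 for 0 of the 8 receptors, for 1075 entries that were higher, or 6.08%, and for 31 that were lower, or 0.175%. Without brain-recovered replicate 12, 226 entries passed, and 0 receptors. No receptor had groups without overlap, against 0.147% of entries with every brain-recovered value above every naive one and 0.0226% with every value below. 7 receptors had a positive difference and Selplg a negative one, where 74.5% of all entries tested had a positive one, with a median of 1.66 over the 8 against 0.64 over all entries tested. Fewer cells that carry a transcript and less transcript per cell cannot be told apart in these bulk libraries.

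The largest single receptor readings were in brain-recovered libraries. Receptor values of 100 RPKM or more numbered 8 of 48 in brain-recovered libraries, or 16.7%, and 0 of 48 in naive libraries, a line chosen after the values were seen. Over all entries tested the same shares were 3.05% in brain-recovered libraries and 0.897% in naive libraries. The high receptor readings came from 6 receptors, and 12.7% of all entries likewise reached 100 RPKM in at least 1 brain-recovered library and in no naive one. Those of Itga4, Itgb1, Itgam and Cd44 and the highest of Itgb2 were in brain-recovered replicates 6 and 10, the deepest libraries. These held 8941307 and 13426240 recovered reads, against at most 2629376 in naive libraries. Those of Cxcr4 and the other of Itgb2 were in replicates 4, 5 and 11, with 3215430 to 4954613 reads. A receptor was listed at 0 in 6 of the 48 brain-recovered readings and in 13 of the 48 naive readings.

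**Figure D1:**
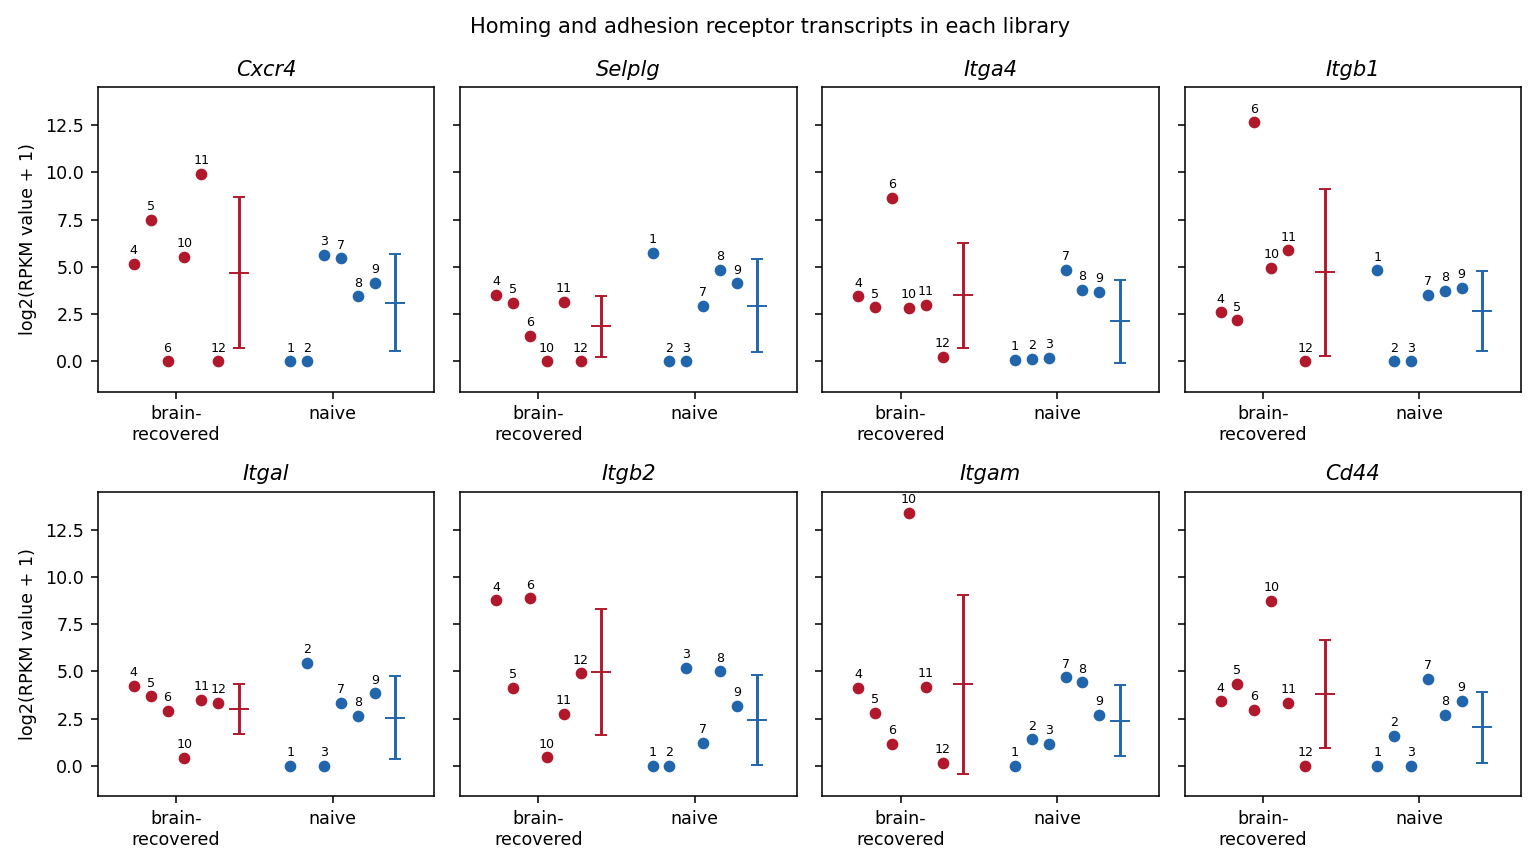
The vertical axis is log2(RPKM + 1) of each of the 8 receptors, with 1 numbered point per library, brain-recovered left of naive, and a bar for the mean ± SD of the log2 values (n = 6 each). Single brain-recovered libraries stand far above the rest for Itgam (10707 RPKM), Itgb1 (6424 RPKM) and Cxcr4 (961 RPKM), while naive values reach at most 52.3 RPKM.

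The libraries differed in ways that bear on all of these values. Brain-recovered libraries held 1129524 to 13426240 recovered reads and naive libraries 654542 to 2629376, a difference of mean log2 reads of 1.74 (exact two-sided permutation test, n = 6 each, p = 0.0195). Naive replicates 1, 2 and 3 and brain-recovered replicate 12 had 4380 to 7164 entries above 0 and the other 8 libraries had 12066 to 23184. Sparseness did not follow depth alone. Naive replicate 1 had 1285571 reads and 7164 entries above 0, naive replicate 8 had 1590229 reads and 16269 entries. Brain-recovered replicate 10, the deepest, had 12066 entries. In the 4 sparse libraries a value of 0 says only that no read of the receptor was recovered. The part of depth and sparseness in the receptor differences was not tested. Without the 4 sparse libraries the differences were 1.27 for Cxcr4, -1.74 for Selplg, 0.05 for Itga4, 1.93 for Itgb1, -0.33 for Itgal, 1.87 for Itgb2, 1.20 for Itgam and 0.97 for Cd44, and 0 of the 8 passed (limma adjusted p of at least 0.987).

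A yardstick for the low values came from 70 olfactory receptor entries of matching length, a family that marrow cells are not known for. Their 95th percentile lay between 0 and 54.3 RPKM in brain-recovered libraries and between 0 and 51.5 RPKM in naive libraries, and it was 0 in brain-recovered replicate 12 and naive replicate 2. Receptor values stood above it in 13 of 48 brain-recovered readings and in 9 of 48 naive readings. Of these, 4 were in brain-recovered replicate 12 and 4 in naive replicate 2, where any read was enough. All entries above 0 had a median of 10.8 to 12.6 RPKM in each library.

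Cxcr4 encodes the CXCL12 receptor that keeps progenitors in marrow and draws them to injured tissue. The gene lies on the minus strand of GRCm38 at chr1:128588199-128592293. The entry deposited under the symbol Cxcr4 carried the Ensembl identifier and the exact length of another gene, Gm11939, and was left out. The entry with the Ensembl identifier of Cxcr4, ENSMUSG00000045382, stood in a block of 13 entries whose symbols were all those of the entry above. In this block 5 entries had the exact length of the gene of their identifier and 0 that of their symbol, so the identifier was followed. Its implied length of 904 bases goes into the annotated exon length of 1808 bases 2 times. An even number of reads in every library would give this, but the length alone does not settle the label.

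Cxcr4 stood at 0, 0, 34.9, 45.8, 178 and 961 RPKM in brain-recovered libraries, the highest in replicate 11 and the next in replicate 5. It stood at 0, 0, 9.88, 16.8, 42.9 and 49.1 RPKM in naive libraries. 2 of the 6 brain-recovered libraries lay above every naive library and 2 in each group were at 0, so the groups overlapped. The mean was 4.69 ± 4.00 in brain-recovered and 3.12 ± 2.55 in naive libraries on the log2 scale (SD, n = 6 each), a difference of 1.57 ± 1.34 (SE, limma adjusted p = 0.961, exact permutation p = 0.446). Without brain-recovered replicate 11 the difference was 0.52.

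Selplg encodes PSGL-1, the selectin ligand on which leukocytes roll. The gene lies on the minus strand at chr5:113818536-113832644. Its implied length of 2604 bases is shorter than the annotated 4272 bases, so its label is less certain. Its values were 0, 0, 1.54, 7.60, 7.97 and 10.5 RPKM in brain-recovered libraries. They were 0, 0, 6.67, 16.5, 27.4 and 52.3 RPKM in naive libraries. The naive replicates 1, 8 and 9 exceeded every brain-recovered library, and both groups reached down to 0. The difference of -1.08 ± 1.22 (SE, limma adjusted p = 0.982, exact permutation p = 0.390) was smaller than its SE, and it came to 0.75 in replicates 1 to 6 alone.

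Itga4 and Itgb1 encode the subunits of VLA-4, the integrin through which progenitors hold on to VCAM1. Itga4 lies on the plus strand at chr2:79255426-79333123 and Itgb1 on the plus strand at chr8:128685654-128733200, and both had exactly the annotated exon lengths of 13978 and 4081 bases. Itga4 had 0.170, 6.17, 6.25, 6.90, 9.83 and 397 RPKM in brain-recovered libraries, and 0.0510, 0.108, 0.141, 11.8, 12.8 and 27.3 RPKM in naive libraries. Only brain-recovered replicate 6 exceeded the highest naive value, and the other 5 brain-recovered libraries lay inside the naive range. The difference was 1.38 ± 1.26 (SE, limma adjusted p = 0.965, exact permutation p = 0.370), 0.35 without replicate 6 and 0.05 without the 4 sparse libraries.

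Itgb1 had 0, 3.53, 5.05, 29.9, 57.7 and 6424 RPKM in brain-recovered libraries, and 0, 0, 10.5, 12.3, 13.9 and 27.1 RPKM in naive libraries. Replicate 6 was again the highest, with 13091 reads on this gene, and replicates 10 and 11 also passed every naive library. The difference was 2.05 ± 1.32 (SE, limma adjusted p = 0.919, exact permutation p = 0.381) and 0.46 without replicate 6. That library alone held 97.6% of the summed RPKM of Itgb1 and 83.0% of that of Itga4, against a median top share of 30.3% over all entries tested. Both subunits stood above the olfactory yardstick in 1 of 6 brain-recovered libraries, which was replicate 6, and in 0 of 6 naive libraries.

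Itgal encodes the alpha chain of LFA-1 and Itgb2 the beta 2 chain that LFA-1 and Mac-1 share. Itgal lies on the plus strand at chr7:127296260-127335138, with an implied length of 6380 bases against 6569 annotated, so its label is less certain. Itgb2 lies on the plus strand at chr10:77530252-77565708, with the exact length of 3052 bases. Itgal had 0.361, 6.59, 9.05, 10.2, 11.8 and 17.9 RPKM in brain-recovered libraries, and 0, 0, 5.32, 9.22, 13.3 and 43.5 RPKM in naive libraries. The highest value belonged to naive replicate 2, and no brain-recovered library passed it. Itgal was the receptor with the least difference in level, 0.46 ± 1.26 (SE, limma adjusted p = 1.00, exact permutation p = 0.673), which was 1.05 without naive replicate 2 and -0.05 without naive replicate 1 or 3.

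Itgb2 had 0.377, 5.78, 16.5, 28.8, 433 and 467 RPKM in brain-recovered libraries, the highest in replicates 6 and 4. It had 0, 0, 1.31, 8.0, 31.0 and 35.2 RPKM in naive libraries. The other 4 brain-recovered libraries lay inside the naive range. Itgb2 had the largest difference of the 8 receptors, 2.55 ± 1.32 (SE, unadjusted limma p = 0.0539, adjusted p = 0.815, exact permutation p = 0.165), and 1.78 without replicate 6. In replicates 7 to 12 alone the difference was -0.42.

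Itgam encodes CD11b, the alpha chain of Mac-1 on myeloid cells, and CD11b was among the antigens used for depletion in both groups. The gene lies on the plus strand at chr7:128062640-128118491. Its implied length of 6377 bases is longer than the annotated 5024 bases, so the label of its values is less certain. Itgam had 0.124, 1.26, 6.07, 16.6, 17.2 and 10707 RPKM in brain-recovered libraries, and 0, 1.24, 1.66, 5.59, 20.4 and 24.7 RPKM in naive libraries. Replicate 10 carried 59366 reads on Itgam and 99.1% of its summed RPKM, and the other 5 brain-recovered libraries lay below the highest naive library. The difference was 1.91 ± 1.30 (SE, limma adjusted p = 0.949, exact permutation p = 0.491) and 0.10 without replicate 10.

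Itgb2, the partner of Itgam, had 0.377 RPKM in replicate 10, so the library highest in the alpha M chain was the lowest brain-recovered library in the beta chain. Itgam and Itgb2 both stood above the olfactory yardstick in 1 of 6 brain-recovered libraries, replicate 12, where the yardstick was 0, and in 0 of 6 naive libraries. The same count held for Itgal with Itgb2. The libraries highest in Itgb2, replicates 6 and 4, had 1.26 and 16.6 RPKM of Itgam and 6.59 and 17.9 RPKM of Itgal, as the plot of paired integrin chains shows.

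**Figure D2:**
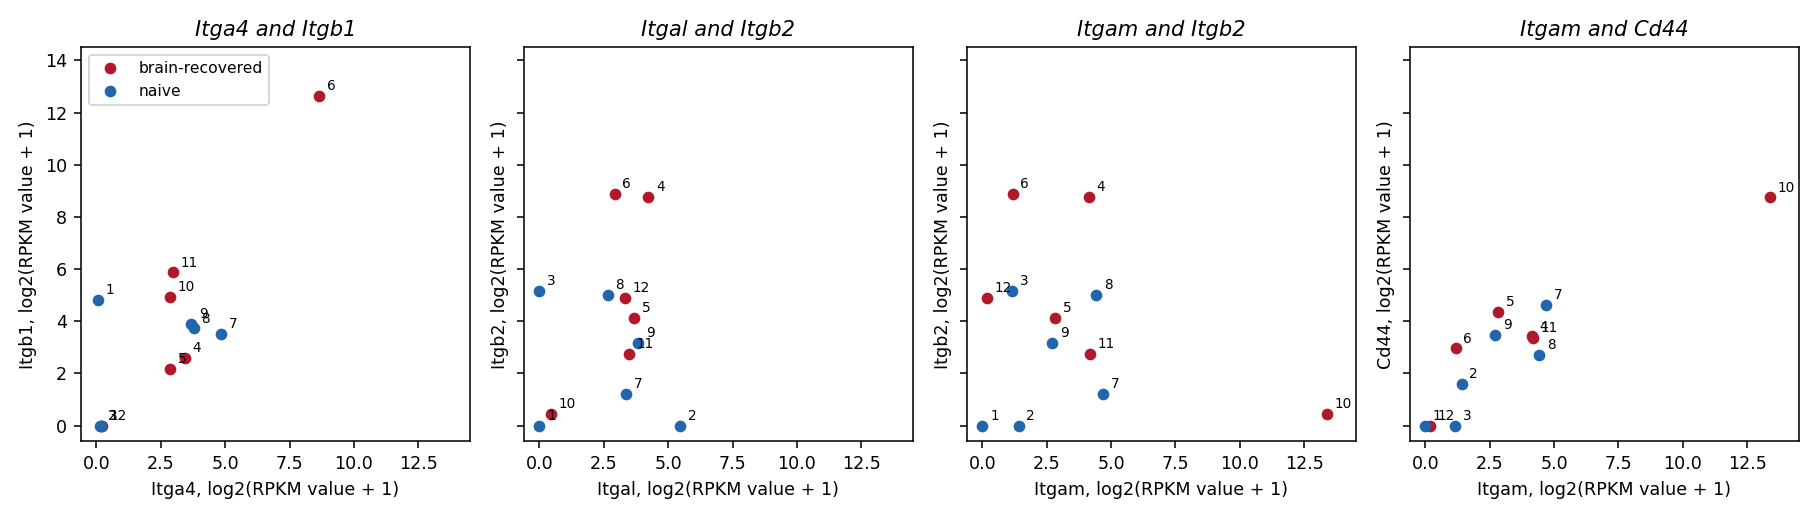
Both axes are log2(RPKM + 1), for the integrin chains Itga4 with Itgb1, Itgal with Itgb2 and Itgam with Itgb2 and for Itgam with Cd44, with 1 numbered point per library. Itga4 and Itgb1 are both highest in brain-recovered replicate 6 and Itgam and Cd44 in replicate 10, whereas the library with 10707 RPKM of Itgam has 0.377 RPKM of Itgb2.

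Cd44 encodes the hyaluronan receptor that also carries selectin ligands. The gene lies on the minus strand at chr2:102811141-102901665 and had the exact annotated length of 6776 bases. Cd44 had 0, 6.80, 9.19, 9.73, 19.4 and 429 RPKM in brain-recovered libraries, and 0, 0, 2.01, 5.54, 10.0 and 23.5 RPKM in naive libraries. Replicate 10 was the only brain-recovered library above the highest naive value. The difference was 1.74 ± 1.27 (SE, limma adjusted p = 0.954, exact permutation p = 0.253) and 0.75 without replicate 10.

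In replicates 1 to 6 alone Cd44 passed the threshold, with a difference of 3.05 ± 0.72 (SE, n = 3 each, limma adjusted p = 0.0149). In that subset 6011 of 15890 entries passed, or 37.8%, and its 3 naive libraries are all among the 4 sparse ones. In replicates 7 to 12 alone the Cd44 difference was 0.44 ± 1.70 (SE, n = 3 each, limma adjusted p = 0.938). Without the 4 sparse libraries it was 0.97 (limma adjusted p = 0.987).

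**Figure D3:**
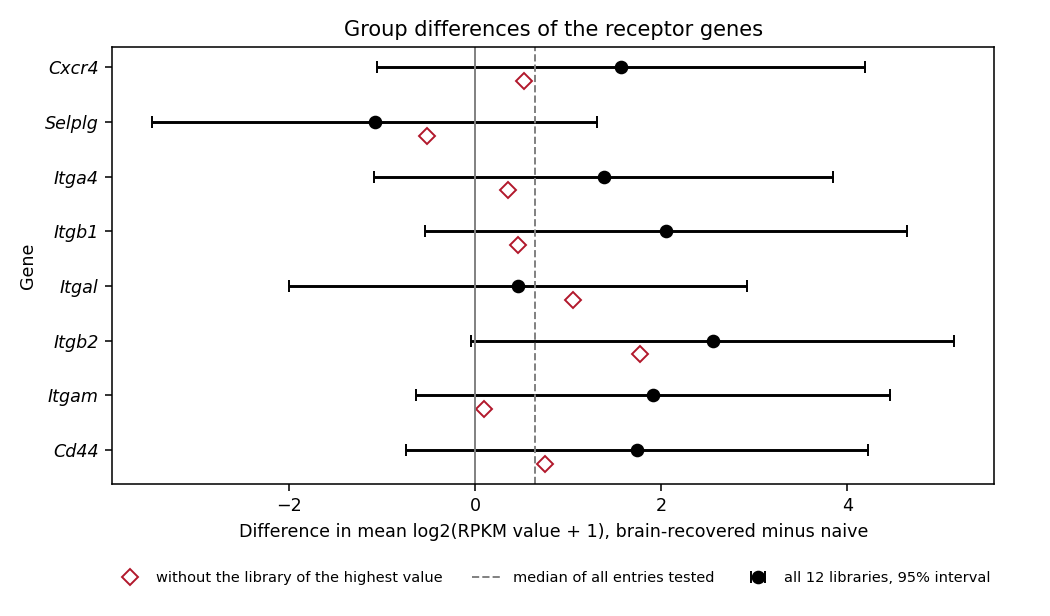
Difference of mean log2(RPKM + 1), brain-recovered minus naive, for each of the 8 receptors with its limma 95% interval (circle and bar), the same difference without the library of the highest value (diamond), and the median of all entries tested (dashed line). Every interval crosses 0, from Selplg at -1.08 to Itgb2 at 2.55.

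The receptors thus differed in which brain-recovered library held their highest value. Cxcr4 was highest in replicate 11, Itga4, Itgb1 and Itgb2 in replicate 6, and Itgam and Cd44 in replicate 10, while Selplg and Itgal were highest in naive replicates 1 and 2. Replicate 12 held Cxcr4, Selplg, Itgb1 and Cd44 at 0.

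**Figure D4:**
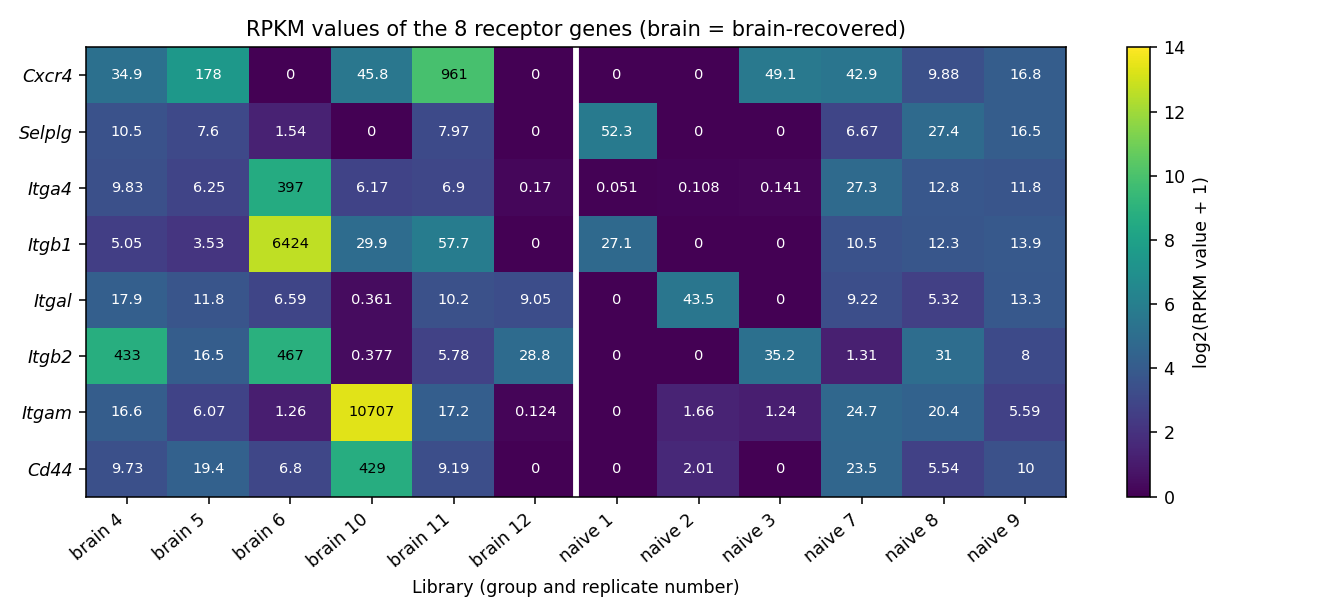
Heat map of log2(RPKM + 1) for the 8 receptors, 1 column per library with brain-recovered libraries left of naive libraries, the RPKM printed in each cell and brighter colours for higher values. The brightest cells are Itgb1 in brain-recovered replicate 6 and Itgam in replicate 10, and the 4 sparse libraries show most of the zeros.

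The 250 bases before the annotated start of 4 receptors are shown, because Itga4 and Itgb1 peaked in the same brain-recovered library and Itgam and Cd44 in another. The sequences are RefSeq promoter windows of GRCm38.p6, which held 5 of the 8 receptors, and capitals mark a match on either strand to GGGCGG, the GC box, to GAGGAA, an ETS core of the PU.1 type, or to CCGGAA, a general ETS core. The windows lie at chr2:79255176-79255425 on the plus strand for Itga4, chr8:128685404-128685653 on the plus strand for Itgb1, chr7:128062390-128062639 on the plus strand for Itgam and chr2:102901666-102901915 on the minus strand for Cd44.
Itga4: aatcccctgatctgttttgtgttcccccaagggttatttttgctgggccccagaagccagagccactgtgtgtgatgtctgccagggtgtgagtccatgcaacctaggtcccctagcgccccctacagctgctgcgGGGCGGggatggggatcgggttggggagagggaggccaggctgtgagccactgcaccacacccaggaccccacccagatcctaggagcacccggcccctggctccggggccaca
Itgb1: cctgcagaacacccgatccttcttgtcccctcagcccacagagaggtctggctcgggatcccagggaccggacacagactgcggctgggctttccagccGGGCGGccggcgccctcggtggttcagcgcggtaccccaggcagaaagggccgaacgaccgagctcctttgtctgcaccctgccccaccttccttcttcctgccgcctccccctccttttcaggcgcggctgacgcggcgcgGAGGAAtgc
Itgam: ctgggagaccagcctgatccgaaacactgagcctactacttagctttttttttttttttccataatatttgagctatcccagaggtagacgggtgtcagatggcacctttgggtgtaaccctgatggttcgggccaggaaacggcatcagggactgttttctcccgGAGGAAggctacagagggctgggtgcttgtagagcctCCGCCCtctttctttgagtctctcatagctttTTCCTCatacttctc
Cd44: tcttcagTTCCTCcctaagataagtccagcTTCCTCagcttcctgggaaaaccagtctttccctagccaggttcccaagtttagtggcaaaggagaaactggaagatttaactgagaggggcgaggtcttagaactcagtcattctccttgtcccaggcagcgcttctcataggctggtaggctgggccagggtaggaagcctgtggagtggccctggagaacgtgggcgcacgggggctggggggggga
GGGCGG was present 1 time each in the windows of Itga4, Itgb1 and Itgam and in 32.7% of all 32851 windows of this length. GAGGAA was present 2 times each in the windows of Itgam and Cd44 and 1 time in that of Itgb1, and in 23.3% of all windows. CCGGAA was in none of the 4 and in 12% of all windows. Itga4 and Itgb1 thus shared GGGCGG, which Itgam also held, and Itgam and Cd44 shared GAGGAA, which Itgb1 also held. The window of Cxcr4, which was highest in brain-recovered replicate 11, held GGGCGG 3 times and GAGGAA 0 times. Neither motif was particular to 1 pair, and many other windows hold each. Itgb2, also highest in replicate 6, had no window. A match says only that these letters stand there.

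Lists of other genes of these steps were counted in the same limma comparison. 12 of 31 other homing receptors had the exact length, as had 4 of 9 selectin ligand genes and 10 of 22 integrin activation genes. The same held for 9 of 13 Cxcr4 signalling genes, 7 of 13 ligands and counter-receptors and 2 of 6 proteases. The list counts and medians thus rest in part on less certain labels. Of the genes named from these lists, Podxl, C1galt1c1 and Spp1 had exactly the annotated length. Itgb7, St3gal4, Rac1, Gnai2, Hmgb1 and Elane had another implied length, so their labels are less certain. Over all entries, 0.367% were called higher, 6.08% were higher at an unadjusted limma p under 0.05, and the median was 0.64. No permutation test was run for single genes of these lists, and their limma SE are pooled over entries. Of 30 tested entries for other homing receptors, 0 passed, 5 were higher at an unadjusted limma p under 0.05, and the median difference was 0.64, the same as over all entries. Itgb7, the beta chain that pairs with alpha 4 for gut homing, had 0, 7.51, 68.5, 494, 798 and 12184 RPKM in brain-recovered libraries and 0 to 32.6 RPKM in naive libraries, a difference of 4.78 ± 1.38 (SE, limma adjusted p = 0.106). Podxl, a sialomucin of progenitors, differed by 3.48 ± 1.30 (SE, limma adjusted p = 0.461). Without brain-recovered replicate 12 both passed the limma threshold (adjusted p = 0.00161 and 0.0426), as they did in replicates 1 to 6 alone (adjusted p = 0.0441 and 0.0111), where 37.8% of all entries passed. In replicates 7 to 12 alone and without the 4 sparse libraries neither passed (limma adjusted p = 0.820 and 0.987 for both), and Podxl differed by 2.15 without brain-recovered replicate 10 (limma adjusted p = 0.922).

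Of 8 tested genes that build selectin ligands, 0 passed and 3 had an unadjusted limma p under 0.05, with a median of -0.00. C1galt1c1, the chaperone of core 1 O-glycan synthesis, differed by 2.66 (limma adjusted p = 0.648) and St3gal4, a sialyltransferase, by 2.73 (limma adjusted p = 0.706). In replicates 1 to 6 alone, where 37.8% of all entries passed, so did St3gal4 (limma adjusted p = 0.0473). Leaving out brain-recovered replicate 10 brought St3gal4 to 0.98. Both had their highest value in brain-recovered replicate 10, at 17053 and 8747 RPKM.

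Of 21 tested genes of integrin activation and linkage 1 rose, 6 were higher at an unadjusted limma p under 0.05, and the median was 1.20. Rac1, the GTPase of lamellipodia, had 0, 10.2, 276, 1728, 1799 and 3968 RPKM in brain-recovered libraries and 0 to 15.7 RPKM in naive libraries, a difference of 6.36 ± 1.37 (SE, limma adjusted p = 0.00386). 4 brain-recovered libraries lay above every naive one. The call was lost with a pseudocount of 10, after quantile normalization, after scaling to library totals, in replicates 7 to 12 alone and without the 4 sparse libraries, with limma adjusted p between 0.736 and 0.855. The Rac1 difference under these settings was 4.01 to 7.0, and it was 7.0 without the 4 sparse libraries.

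Of 13 tested genes of Cxcr4 signalling 1 rose, which was also the 1 with an unadjusted limma p under 0.05, and the median was 1.15. Gnai2, the inhibitory G protein alpha subunit that CXCR4 couples to, had 0.363, 234, 292, 635, 3562 and 4367 RPKM in brain-recovered libraries and 0 to 16.8 RPKM in naive libraries, a difference of 6.22 ± 1.41 (SE, limma adjusted p = 0.00639). 5 brain-recovered libraries lay above every naive one. The call was lost under the same 5 settings, with differences of 3.23 to 7.11 and limma adjusted p between 0.0848 and 0.855. Without the 4 sparse libraries the Gnai2 difference was 7.11 ± 1.13 (SE). The call was also lost without brain-recovered replicate 4 (0.0830) or naive replicate 1 (0.0583).

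Of 12 tested ligands and counter-receptors 0 passed, 2 had an unadjusted limma p under 0.05 and the median was 1.10. Spp1, which encodes the CD44 and integrin ligand osteopontin, had 0, 0, 13.2, 47.5, 1603 and 6015 RPKM in brain-recovered libraries and 0 to 14.6 RPKM in naive libraries, a difference of 4.05 (limma adjusted p = 0.223) that passed without brain-recovered replicate 12 (limma adjusted p = 0.0173). In replicates 7 to 12 alone the Spp1 difference was 0.55 (limma adjusted p = 0.926), and without the 4 sparse libraries 3.93 (limma adjusted p = 0.987). Hmgb1, an alarmin that can form a complex with CXCL12, differed by 3.62 (limma adjusted p = 0.489).

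Of 6 tested proteases of mobilisation 1 rose, 2 were higher at an unadjusted limma p under 0.05, and the median was 2.00. Elane, the neutrophil elastase that cleaves CXCL12 and VCAM1, had 0, 4.48, 12.4, 848, 17187 and 65623 RPKM in brain-recovered libraries and 0 to 7.89 RPKM in naive libraries, a difference of 5.99 ± 1.39 (SE, limma adjusted p = 0.00835). The call was lost under 7 settings, with differences of 3.94 (quantile normalization) to 7.39 (replicates 1 to 6 alone), among them 5.99 with no filter and 7.20 without the 4 sparse libraries. It was also lost without brain-recovered replicate 5, 6 or 10 or naive replicate 7 or 8, with differences of 4.32 to 5.96.

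Some marker sums of other cells were high in brain-recovered libraries that carried high receptor values, which were all of them but replicate 12. Of the markers named here, Cx3cr1, Ly6a, Cdh5, Trac, Cd3e, Cd3g, Kit, Cd34, Ccr2, S100a8, Camp, Ltf and Lcn2 had another implied length. Their labels are less certain, and the sums also hold other entries of this kind. C1qa, C1qb, C1qc, Tmem119 and S100a9 had the exact length. In brain-recovered replicate 10, highest in Itgam and Cd44, the 5 myeloid progenitor markers summed to 110200 RPKM, against 123 to 25190 RPKM in the other brain-recovered libraries and 0.857 to 97.6 RPKM in naive libraries. The 7 microglia markers summed to 21180 RPKM there and to 5.34 to 135 RPKM in naive libraries, with C1qa at 19416 and C1qb at 1764 RPKM, while C1qc, Tmem119, Cx3cr1 and P2ry12 were listed at 0 in this library.

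In brain-recovered replicate 6, highest in Itga4, Itgb1 and Itgb2, the 9 stem and progenitor markers summed to 35160 RPKM, of which Ly6a made 35095 RPKM, against 43.6 to 87.4 RPKM in naive libraries. The 5 oligodendrocyte markers summed to 18530 RPKM there, against 16.6 to 75.1 RPKM in naive libraries. The 6 endothelial markers summed to 1408 RPKM, of which Cdh5 made 1309 RPKM, and the 4 T cell markers to 26280 RPKM, all but a trace of it Trac, with Cd3e and Cd3g listed at 0. The microglia, erythroid and astrocyte lists summed to 3070, 2324 and 2127 RPKM in this library, and to at most 135, 47.7 and 67.8 RPKM in naive libraries. Kit and Cd34, which define progenitors, stood at 0 to 13.9 and 0 to 23.7 RPKM over all 12 libraries. The part of these cells in the receptor values was not tested.

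Brain-recovered replicate 11, highest in Cxcr4, had the highest monocyte and macrophage sum, 651 RPKM, and the highest B cell sum, 167 RPKM, against at most 84.8 and 57.9 RPKM in naive libraries. Ccr2 made 573 RPKM of the monocyte and macrophage sum, and Ms4a1, a defining B cell marker, was listed at 0 in all libraries. Replicate 4, with Itgb2 at 433 RPKM, had the highest neutrophil sum, 17610 RPKM, against 47.1 to 12980 RPKM in naive libraries. S100a8 made 9559 RPKM and S100a9 8025 RPKM of it, while Camp was listed at 0, Ltf at 9.52 and Lcn2 at 13.7 RPKM. The naive neutrophil sum of 12980 RPKM was in naive replicate 1, where Itgal, Itgb2 and Itgam were listed at 0. The oligodendrocyte sum of brain-recovered replicate 4 was 6165 RPKM, and that of replicate 5, with Cxcr4 at 178 RPKM, was 7411 RPKM.

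The entries with the pattern most like each receptor over the 12 libraries were drawn from 8233 entries of exact length, by Pearson r of log2(RPKM + 1), which is given as a description since all points share library and depth. For Cxcr4 they were Ppp5c and Srsf1 (both 0.90), for Selplg Zbtb5 (0.98) and Hook1 (0.97), for Itga4 Phldb2 (0.98) and Impad1 (0.97), and for Itgb1 Prkd3 and Epn2 (both 0.95). For Itgal they were Agbl4 and Capn5 (both 0.94), for Itgb2 Zdhhc2 (0.86) and Lrp8os3 (0.84), for Itgam Ica1 (0.99) and Mrpl1 (0.96), and for Cd44 Ino80 and Uimc1 (both 0.97).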

How the data were processed

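The RNA of 6 brain-recovered and 6 naive libraries was amplified with a low-input SMARTer kit, tagmented with Nextera XT and read on an Illumina instrument, per the labels' protocols. The submitters' processing notes name Trimmomatic 0.32 and GRCm38. Which aligner, counter and annotation made the values is not given in the sources used here. 1 table was deposited by the authors, and its values behave as RPKM: divided by a constant of each library and multiplied by a gene length they give whole reads within 0.004. These reads gave depth and implied gene lengths, which were set beside GENCODE M21.

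Symbols and values were displaced in stretches: of 22545 entries whose length could be compared, 46.9% had the exact annotated length. The entry labelled Cxcr4 was replaced by the one with its Ensembl identifier. Of the other 7 receptors 4 had the exact length and 3 another length with their identifier and symbol in agreement. That agreement does not tell whether the values belong to the entry, so the labels of Selplg, Itgal and Itgam are less certain.

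The design had a count model for raw counts, but the values are scaled reads. So limma 3.58.1 in R 4.3.3 was run on log2(RPKM + 1). It took entries with at least 1 RPKM in at least 6 libraries, with a variance trend, Benjamini-Hochberg adjustment and a threshold of 0.05. The prior degrees of freedom were infinite, so standard errors rest on the spread pooled over entries. The 2-sided exact permutation test ran over all 924 assignments of libraries, in Python 3.11.15 with scipy 1.17.1. The limma step was tested on simulated data. Alternatives were other pseudocounts, filters and scalings, replicates 1 to 6 or 7 to 12 alone, all but the 4 sparse libraries, and each library left out.

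Named beside the receptors were, per list, the entries past the threshold or otherwise the 2 with the largest absolute limma statistic, and per receptor the 2 entries with the highest Pearson r. The receptors, lists and tests were chosen with earlier results of these data known.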

Additional observations from a re-analysis of the deposited data

Results flagged for a closer look

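Each of the 8 receptors was checked in both groups, 16 sets of 6 libraries in all, for a highest or lowest library whose distance to the nearest other, as a share of the whole range of its set, exceeded the 95% limit of Dixon's test. 6 of the 16 sets had such a library, 5 among brain-recovered and 1 among naive libraries, and chance gives about 1 in 20 for normally distributed values. RPKM are strongly skewed, so that rate does not hold here: over all entries tested such a library was present in 23.8% of brain-recovered sets and 25.3% of naive sets. On the log2(RPKM + 1) scale 1 of these 6, Itgam, also passed the limit. Over all entries 12.7% of brain-recovered and 5.18% of naive sets had such a library on that scale. These shares cannot be set against the 1 of 6, which leaves out receptor sets not flagged on RPKM. Cxcr4 in brain-recovered replicate 11 stood at 961 RPKM. Itga4 and Itgb1 in brain-recovered replicate 6 stood at 397 and 6424 RPKM. Itgam and Cd44 in brain-recovered replicate 10 stood at 10707 and 429 RPKM. Itgal in naive replicate 2 stood at 43.5 RPKM.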

How the results depend on the processing

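Of 171 values of the 8 receptors under other settings, 159 kept their direction and their side of the threshold, 11 turned their direction and 1 passed the threshold. The count of 65 entries called became 0 with a pseudocount of 10, after quantile normalization, after scaling to library totals and in replicates 7 to 12 alone, 33 with at least 10 RPKM in 6 libraries, 2 without the 4 sparse libraries and 6011 in replicates 1 to 6 alone. Leaving out 1 library gave 36 (naive replicate 8) to 226 (brain-recovered replicate 12). The count of 0 receptors called became 1 in replicates 1 to 6 alone, which was Cd44 at 3.05, and was 0 without any 1 library. The 3 pathway genes called became 0 with a pseudocount of 10, after quantile normalization, after scaling to library totals, in replicates 7 to 12 alone and without the 4 sparse libraries, 20 in replicates 1 to 6 alone, and 2 to 7 without 1 library. Directions turned for Selplg in replicates 1 to 6 alone (0.75), for Itga4 after quantile normalization (-0.21) and in replicates 7 to 12 alone (-2.08), and in replicates 7 to 12 alone for Itgb1 (-0.11) and Itgb2 (-0.42). Itgal turned after quantile normalization (-0.0015), after scaling to library totals (-0.47), in replicates 7 to 12 alone (-0.86) and without the 4 sparse libraries (-0.33), and ranged from -0.048 to 1.05 without 1 library, being -0.048 also without naive replicate 3. The causes were not tested. The median of all entries was -0.06 after quantile normalization and -0.37 after scaling to library totals, against 0.64, and 6 of 8 receptors lay above it in each. With at least 10 RPKM in 6 libraries Selplg, Itga4, Itgal, Itgam and Cd44 give no value. No paired analysis was possible because the replicate numbers of the groups share none.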
